A study of Homo sapiens with 6 samples.

Results

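The immediate early AP-1 and EGR transcription factors examined here were the FOS genes FOS, FOSB, FOSL1 and FOSL2, the JUN genes JUN, JUNB and JUND, and the EGR genes EGR1 and EGR2. They were chosen by gene name, as the FOS, JUN and EGR families, with earlier results of these data known. Of 10 genes chosen, 9 were measured among 25969 genes in all, and EGR3 was not analysed here. RNA was sequenced from human prostate cancer cells labelled LNCaP, the name of an androgen-sensitive line derived from a lymph node metastasis. In 3 libraries the cells carried a VIM-AS1 overexpression vector, and the labels give their genotype as VIM-AS1 overexpressed. In the 3 control libraries the cells carried the pcDNA3.1 vector, a common plasmid for expression in mammalian cells, and the genotype is given as WT. VIM-AS1 is a noncoding RNA transcribed antisense to VIM, which encodes vimentin, and the study asked how its overexpression alters gene expression. The sources used here give neither the time after transfection nor any serum or growth factor treatment, and do not say whether clones were selected.

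FOS and JUN proteins carry a basic leucine zipper and bind DNA as pairs, known together as AP-1. FOS proteins pair with JUN proteins and cannot bind DNA as pairs with each other, while JUN proteins can also pair among themselves. EGR proteins bind GC-rich DNA through zinc fingers. Most of these genes are switched on within minutes of a growth factor, stress or serum stimulus, without new protein synthesis, and their RNAs are short-lived. Their transcription is driven largely by MAP kinases acting on serum response factor with its ternary complex partners, and on CREB and ATF proteins. In prostate epithelial cells AP-1 and EGR1 are known for their links to proliferation and to stress responses.

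The libraries held 14762893 to 19889745 reads counted in genes. VIM-AS1 stood at 2197, 2019 and 2763 normalized reads in the VIM-AS1 libraries, against 8.63, 1.22 and 5.53 in the controls, and its log2 fold change was 8.80 ± 0.33 (SE). The defining LNCaP markers KLK3 and FOLH1 were at or near 0: KLK3 had 0 reads in 5 libraries and 2 reads in control replicate 1, and FOLH1 had at most 3.84 normalized reads. These values go against the label, so the cells are called LNCaP here only as labelled. HOXB13, also a marker of luminal prostate cells, was present at 545 to 807 normalized reads in VIM-AS1 libraries, against 401 to 729 in controls. The summed signal of 5 measured luminal markers was 718 to 930 normalized reads in VIM-AS1 libraries and 532 to 858 in controls. The sums of the fibroblast markers were 974 to 1426 in VIM-AS1 libraries and 1660 to 1863 in controls, those of the basal markers 4.90 to 17.9 and 24.9 to 40.3, and those of the endothelial markers 64.5 to 109 and 33.2 to 64.7. COL1A2, LUM and PECAM1 were too low to be tested, and the immune marker measured, CD14, stood at 5.27 to 15.3 in VIM-AS1 libraries and 14.2 to 40.3 in controls. Mitochondrial genes took 7.06, 6.86 and 5.57% of the reads of VIM-AS1 libraries, against 8.73, 14.3 and 11.8% in controls. In both groups replicate 3 lay apart from replicates 1 and 2, with a shared deviation that ran with the GC content of the genes (Spearman rho = -0.83 across 13168 genes, which are not independent replicates). Control replicates 1 and 2 also lay far from each other. Their reads differed by a chi-square per degree of freedom of 41.4, against 65.4 and 62.2 for the control pairs with replicate 3. In VIM-AS1 libraries it was 7.14 between replicates 1 and 2, and 45.5 and 69.2 for the pairs with replicate 3. The part of the marker levels, of the mitochondrial share and of the third libraries in the results on the FOS, JUN and EGR genes was not tested beyond the fits given with them. The labels do not say whether replicate libraries derive from different cultures, and the p-values therefore cover the spread between libraries only, which may be technical.

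Most of the FOS, JUN and EGR genes fell in cells with the VIM-AS1 vector, and 1 rose. FOS, FOSB, JUN, JUNB, JUND and EGR1 fell to between 49.2% (FOSB) and 73.1% (JUND) of the control mean. FOSL1, which encodes the FOS protein FRA-1, rose to 170% of it. FOSL2 and EGR2 were not called in either direction. These calls come from limma fitted to log2(value + 1) over 20927 genes with a term for the third library of each group, at an adjusted p under 0.05 over all genes, and "rose" and "fell" refer to this fit. There, 6 of 9 members fell and 1 rose, against 7.94% of all tested genes called lower and 11.5% called higher. Without the term the spread within the groups was larger, and 0 of 9 members were called, with 0.0239% of all genes called. In the fit without the term 6 members had an unadjusted p under 0.05, as had 2854 of 20927 genes (13.6%), and edgeR, DESeq2 and limma-voom without the term also called 0 members. The replicate number as a block assumes a pairing that the labels do not give. This block called 6 members lower and 2 higher, with 10.8% of all genes called lower and 15.8% called higher. In 5 of 9 members every VIM-AS1 library lay below every control library, as it did in 10.3% of all tested genes, and no member had its VIM-AS1 libraries all above, as 9.5% of all genes had.

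The calls in the fit with the term rested on replicate 3 of each group being present. Without VIM-AS1 replicate 3 or without control replicate 3, which leaves the difference to be estimated from 2 libraries per group, 1 member kept its call, namely JUNB at an adjusted p of 0.045 and 0.047. Without VIM-AS1 replicate 3 the adjusted p was 0.0523 for FOS, 0.0556 for FOSB, 0.0736 for FOSL1, 0.0663 for JUN, 0.119 for EGR1 and 0.348 for JUND. Without control replicate 3 these genes had an adjusted p between 0.0559 for FOS and 0.343 for JUND, and the count of all genes called dropped to 236, against 4065 with every library. Between the first and second libraries of the groups the log2 difference was -0.66 for FOS, -0.94 for FOSB, 0.81 for FOSL1, -0.60 for JUN, -0.79 for JUNB, -0.36 for JUND and -0.42 for EGR1. Between the third libraries it was -0.69 for FOS, -1.22 for FOSB, 0.65 for FOSL1, -0.64 for JUN, -0.62 for JUNB, -0.68 for JUND and -0.57 for EGR1. The sign was thus the same in both for each gene, and the size differed most for JUND.

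**Figure D1:**
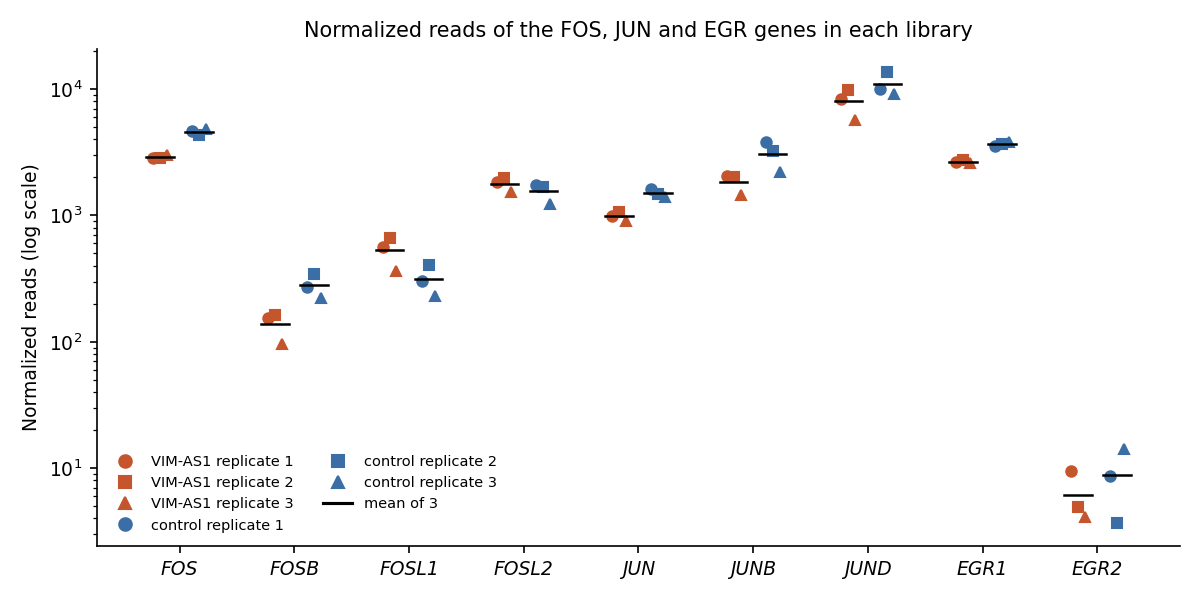
Normalized reads of the FOS, JUN and EGR genes in each library, on a log axis, with VIM-AS1 libraries left of control libraries for each gene. The VIM-AS1 libraries of FOS, FOSB, JUN, JUNB and EGR1 sit below all control libraries, while those of FOSL1, FOSL2, JUND and EGR2 overlap them.

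The promoter sequences of 5 genes that fell, FOS, FOSB, JUNB, JUND and EGR1, are shown to set their start regions side by side for elements known from immediate early genes. They come from RefSeq on GRCh38.p14, begin 250 bases before the annotated start and end before the first base of the GENCODE 29 gene. Capitals mark TGACG (the core of a CREB and ATF site, searched on both strands and read CGTCA on the opposite one, which also lies inside the full palindrome TGACGTCA), the CArG box bound by serum response factor (both strands) and TATAAA (gene strand), written 5′ to 3′ on the strand of the gene.
FOS, chr14:75278578-75278773, plus strand: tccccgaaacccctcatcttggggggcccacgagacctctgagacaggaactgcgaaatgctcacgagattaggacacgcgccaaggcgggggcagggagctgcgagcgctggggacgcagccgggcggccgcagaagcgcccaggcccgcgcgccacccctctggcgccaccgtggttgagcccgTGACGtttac
FOSB, chr19:45467746-45467994, plus strand: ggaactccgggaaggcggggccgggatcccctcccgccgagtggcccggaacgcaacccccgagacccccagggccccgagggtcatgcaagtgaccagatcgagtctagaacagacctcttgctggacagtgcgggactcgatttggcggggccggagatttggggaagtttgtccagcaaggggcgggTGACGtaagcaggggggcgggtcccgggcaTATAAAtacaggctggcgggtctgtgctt
JUNB, chr19:12791236-12791485, plus strand: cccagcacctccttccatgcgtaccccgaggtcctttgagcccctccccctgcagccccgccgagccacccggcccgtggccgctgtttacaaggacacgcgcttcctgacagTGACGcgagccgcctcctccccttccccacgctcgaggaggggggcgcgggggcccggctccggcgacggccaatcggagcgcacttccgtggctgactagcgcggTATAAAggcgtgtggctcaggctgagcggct
JUND, chr19:18281623-18281872, minus strand: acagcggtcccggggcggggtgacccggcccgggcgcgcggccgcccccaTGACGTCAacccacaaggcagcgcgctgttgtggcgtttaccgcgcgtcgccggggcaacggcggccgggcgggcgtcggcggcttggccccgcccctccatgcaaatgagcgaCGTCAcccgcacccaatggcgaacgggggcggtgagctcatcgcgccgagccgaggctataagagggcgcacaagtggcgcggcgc
EGR1, chr5:138465229-138465478, plus strand: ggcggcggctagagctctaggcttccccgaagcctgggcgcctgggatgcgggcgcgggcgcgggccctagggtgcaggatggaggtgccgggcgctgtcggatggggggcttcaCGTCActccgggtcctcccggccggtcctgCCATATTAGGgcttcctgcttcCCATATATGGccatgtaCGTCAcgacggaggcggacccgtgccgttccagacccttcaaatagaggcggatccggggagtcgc
EGR1 held 2 CArG boxes, at -105 to -96 and -83 to -74 from the start, and 1.16% of 34943 RefSeq promoter windows of 250 bases held at least 1. The windows of FOS, FOSB, JUNB and JUND held 0. Bases farther than 250 from the start were not searched, so these counts do not show that a promoter lacks the element. TGACG was found in all 5 windows and in 21.2% of all windows. It lay at -64 to -60 in FOS and at -60 to -56 in FOSB. JUND held TGACGTCA at -200 to -193, found in 1.63% of windows. TATAAA was present in FOSB at -30 and in JUNB at -31, and in FOS at -33, which lies past the stretch printed, and 6.82% of windows held it. The AP-1 site TGACTCA, present in 4.22% of windows, was in none of the windows of the members matched. The windows of JUN and FOSL2, which lie inside the GENCODE genes and are not printed, held TGACG 1 and 2 times, and 1 of 3 windows of EGR2 held a CArG box. Windows matched 8 of the 9 members by symbol, and the one without was FOSL1. A match of letters is a description and does not show that a protein is bound there.

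FOS (ENSG00000170345) lies on chr14:75278774-75282230, plus strand, of GRCh38, and encodes the FOS protein that pairs with JUN to form classical AP-1. It had 2863, 2839 and 3006 normalized reads in the VIM-AS1 libraries, against 4655, 4368 and 4839 in the controls. The libraries of each group lay close together and the groups did not overlap. FOS fell to 62.8% of the control mean, 2903 ± 90.5 against 4621 ± 238 normalized reads (SD, n = 3 each), and its log2 fold change was -0.67 ± 0.10 (SE; adjusted p = 0.000108 in limma). In bulk RNA, fewer cells expressing a gene and less RNA per cell cannot be told apart, here and for the other genes.

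FOSB (ENSG00000125740) lies on chr19:45467995-45475179, plus strand, and encodes a FOS protein known in neurons for its stable short form. Its values were 154.9, 162.6 and 95.2 normalized reads in VIM-AS1 libraries and 272.4, 342.1 and 223.5 in controls. All VIM-AS1 libraries were lower than all controls, and the third library was the lowest of each group. FOSB fell to 49.2% of the control mean, with a log2 fold change of -1.03 ± 0.15 (adjusted p = 9.77e-05). Of 9758 genes with a mean of at least 100 normalized reads, 96 had a more negative log2 fold change than FOSB, and 335 a more negative one than FOS.

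FOSL1 (ENSG00000175592) lies on chr11:65892049-65900573, minus strand, and encodes FRA-1, a FOS protein that lacks the strong activation domain of FOS and is known from invasive carcinoma cells. It had 563.7, 661.3 and 360.2 normalized reads in VIM-AS1 libraries, against 302.2, 401.9 and 229.8 in controls. VIM-AS1 replicate 3 lay under control replicate 2, so the groups overlapped, although each VIM-AS1 library was higher than the control of the same number. FOSL1 rose to 528 ± 154 normalized reads, against 311 ± 86.4 in controls, a log2 fold change of 0.75 ± 0.13 (adjusted p = 0.000502). Without the term the adjusted p was 0.292. A more positive change was seen in 281 of the 9758 genes with a mean of at least 100.

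FOSL2 (ENSG00000075426), on chr2:28392448-28417312, plus strand, encodes FRA-2, the other FRA protein. Its values of 1833, 1976 and 1544 normalized reads in VIM-AS1 libraries overlapped the 1733, 1687 and 1228 of controls. The log2 fold change of 0.21 ± 0.10 did not pass (adjusted p = 0.155). With the replicate block it did (adjusted p = 0.0477), since each VIM-AS1 library was above the control of the same number, by 0.08, 0.23 and 0.33 on the log2 scale. With the trends in GC content and length removed, described further on, the log2 fold change of FOSL2 was 0.03 ± 0.11 (adjusted p = 0.921).

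Within the FOS family the balance between the genes differed between the groups. Per kilobase of exon, the 4 FOS genes summed to 1467, 1533 and 1352 normalized reads in VIM-AS1 libraries, against 1889, 1859 and 1828 in controls. FOS made up 60.3, 57.2 and 68.7% of that sum in VIM-AS1 libraries and 76.1, 72.6 and 81.7% in controls. FOSL1 made up 20.4, 22.9 and 14.1% in VIM-AS1 libraries and 8.48, 11.5 and 6.66% in controls. Neither share overlapped between the groups. FOSL2 took 16.0 to 18.0% of the sum in VIM-AS1 libraries and 9.39 to 12.8% in controls, and FOSB took 1.27 to 1.91% and 2.20 to 3.31%. The level of FOSL1 per level of FOS, both per kilobase, was 0.338, 0.400 and 0.206 in VIM-AS1 libraries, against 0.111, 0.158 and 0.0815 in controls. These shares and ratios follow from the same libraries as the fold changes and were not tested separately. Their size also depends on the exon length taken for each gene.

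**Figure D2:**
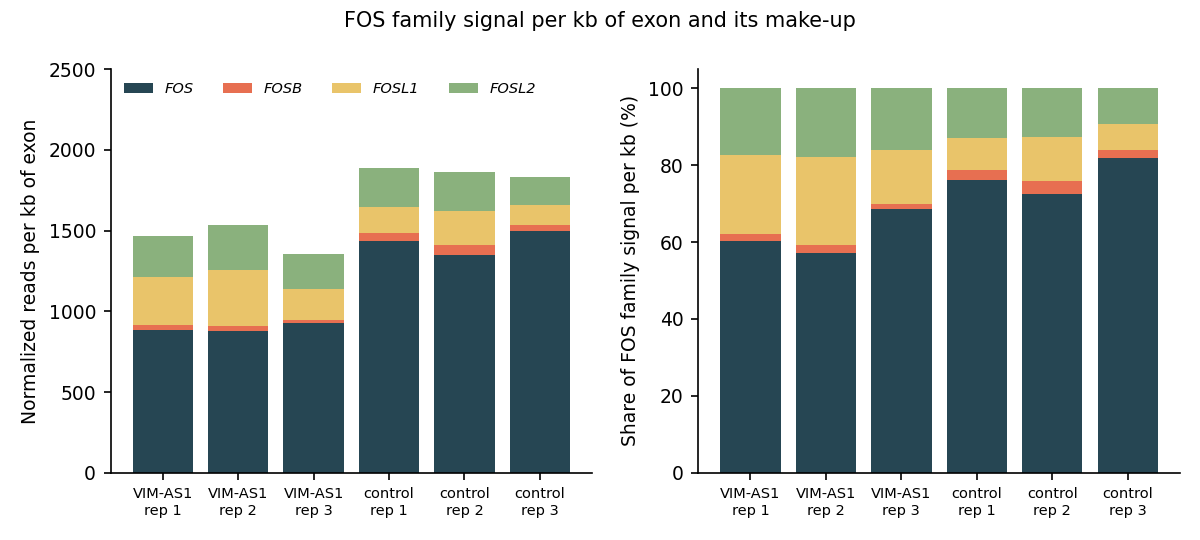
Levels of the FOS genes per kilobase of exon and their shares of the FOS family sum (%), by library, with VIM-AS1 libraries left of controls. The share of FOS is 57.2 to 68.7% in VIM-AS1 libraries and 72.6 to 81.7% in controls, and that of FOSL1 is 14.1 to 22.9% and 6.66 to 11.5%.

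JUN (ENSG00000177606), on chr1:58780788-58784327, minus strand, encodes the JUN protein activated by JNK kinases. It had 986.1, 1069 and 897.4 normalized reads in VIM-AS1 libraries, against 1631, 1484 and 1404 in controls. The groups were well apart, the highest VIM-AS1 library being 1069 and the lowest control 1404. JUN fell to 65.3% of the control mean, with a log2 fold change of -0.61 ± 0.10 (adjusted p = 0.000296).

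JUNB (ENSG00000171223), on chr19:12791496-12793315, plus strand, encodes a JUN protein with weaker activation than JUN and known for restraining the cell cycle. Its values were 2050, 1999 and 1447 normalized reads in VIM-AS1 libraries, against 3827, 3223 and 2226 in controls. The third library was the lowest in each group, and the highest VIM-AS1 library was still under the lowest control. JUNB fell to 59.2% of the control mean, with a log2 fold change of -0.74 ± 0.10 (adjusted p = 7.1e-05). Its exon shares 259 bases, 14.2% of its length, with an exon of HOOK2 on the opposite strand, and no source used here says that the libraries keep strand, so reads from that stretch are uncertain. HOOK2 itself had 257 to 293 reads in VIM-AS1 libraries and 231 to 319 in controls, against 1414 to 2040 and 2638 to 3990 reads for JUNB. No other member shared exon bases with another annotated gene.

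JUND (ENSG00000130522), on chr19:18279760-18281622, minus strand, encodes the JUN protein that is expressed most evenly and least induced. It had 8361, 9930 and 5700 normalized reads in VIM-AS1 libraries, against 9945, 13725 and 9155 in controls. The groups overlapped, although each VIM-AS1 library lay under the control of the same number. JUND fell to 73.1% of the control mean, with a log2 fold change of -0.47 ± 0.13 (adjusted p = 0.0175). This call was lost when single libraries were left out, with an adjusted p of 0.119 for VIM-AS1 replicate 1 and 0.348 for VIM-AS1 replicate 3, and of 0.113 for control replicate 2 and 0.343 for control replicate 3. It was also lost with the GC content and length trends removed (log2 fold change -0.27, adjusted p = 0.0814 with the term).

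EGR1 (ENSG00000120738), on chr5:138465490-138469315, plus strand, encodes the zinc finger factor most widely used as a marker of immediate early induction. It had 2644, 2773 and 2580 normalized reads in VIM-AS1 libraries, against 3551, 3691 and 3832 in controls. As with FOS, the libraries of a group lay close together and the groups did not overlap. EGR1 fell to 72.2% of the control mean, 2666 ± 98.2 against 3691 ± 141 normalized reads (SD, n = 3 each), with a log2 fold change of -0.47 ± 0.10 (adjusted p = 0.00234). EGR2 (ENSG00000122877), on chr10:62811996-62919900, minus strand, encodes a related factor known from myelinating Schwann cells. It had 9, 5 and 4 reads in VIM-AS1 libraries and 9, 3 and 18 in controls. At this depth no difference in EGR2 was detectable (log2 fold change -0.37 ± 0.58, adjusted p = 0.712), and the sign of its estimate changed when single libraries were left out.

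**Figure D3:**
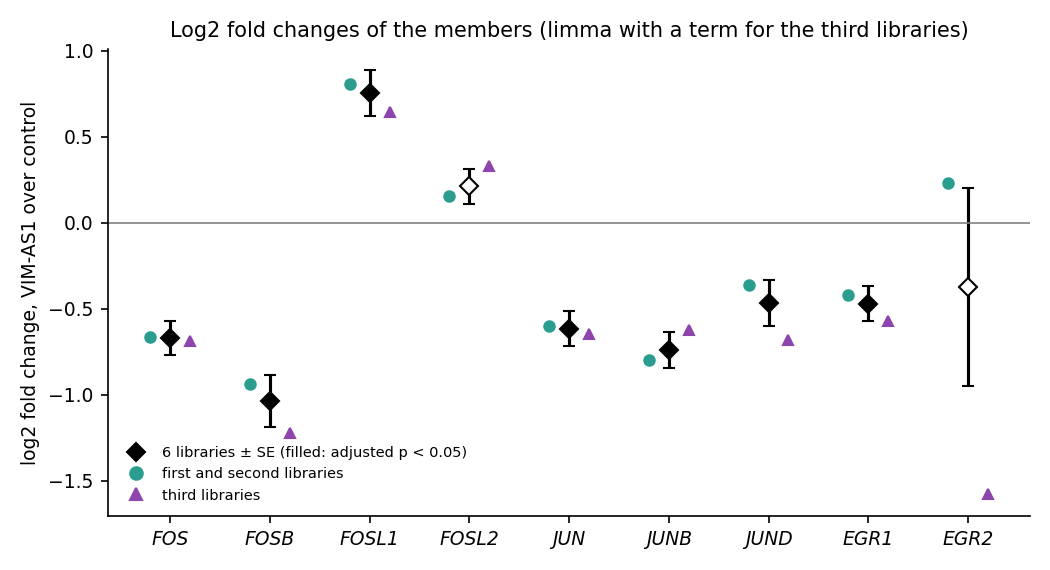
Log2 fold changes of VIM-AS1 over control libraries for each gene, from limma with a term for the third libraries, with diamonds for the estimate from all 6 libraries (filled where called) and bars for ± SE. Circles give the difference between the first and second libraries and triangles that between the third libraries. FOS, FOSB, JUN, JUNB, JUND and EGR1 lie below 0, FOSL1 lies at 0.75, and the bar of EGR2 spans 0.

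The libraries carrying the same replicate number gave differences of the same sign for the genes that were called. FOS differed by -0.70, -0.62 and -0.69 on the log2 scale between VIM-AS1 and control libraries of replicates 1, 2 and 3, and JUN by -0.73, -0.47 and -0.64. FOSB differed by -0.81, -1.07 and -1.22, and FOSL1 by 0.90, 0.72 and 0.65. The differences of JUND were the least even, at -0.25, -0.47 and -0.68.

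The order of levels was read per kilobase of exon, counting all annotated exon bases of a gene. For FOS these were 3238 bases, against 2158 in its longest transcript, and for FOSB 5553 against 3775. For JUNB and EGR1 the lengths were equal, so FOS and FOSB would stand higher beside them on transcript length. The order below therefore depends on the length used. In VIM-AS1 libraries JUND stood highest, at 4292 ± 1148 normalized reads per kilobase (SD, n = 3), and in controls it stood at 5873 ± 1311. Next in VIM-AS1 libraries came JUNB (795 to 1126), FOS (877 to 928) and EGR1 (822 to 884), with overlapping ranges over the libraries. FOSL1 (280 ± 81.4), JUN (278 ± 24.2) and FOSL2 (249 ± 30.8) followed, also with overlapping ranges. FOSB (24.8 ± 6.65) and EGR2 (1.67 ± 0.79) were lowest. In controls the order was JUNB (1699 ± 444) and FOS (1427 ± 73.4), which overlapped, then EGR1 (1176 ± 44.8), JUN (425 ± 32.5), FOSL2 (217 ± 39.0) and FOSL1 (165 ± 45.8), of which only the last pair overlapped, then FOSB (50.3 ± 10.7) and EGR2 (2.40 ± 1.43). JUN was thus apart from FOSL1 and FOSL2 in the controls, while its range lay within that of FOSL1 in VIM-AS1 libraries. Summed per kilobase, the JUN family stood at 5893, 6730 and 4108 in VIM-AS1 libraries, against 7902, 9557 and 6534 in controls, and the highest VIM-AS1 library was above the lowest control. The EGR sum, almost all of it EGR1, was 845, 885 and 823 in VIM-AS1 libraries, against 1134, 1177 and 1225 in controls.

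GC content, taken from the longest transcript of each gene, differed among the genes, from 50.9% for EGR2 to 69.7% for JUND. The shared deviation of the third libraries was more negative in the genes of higher GC content, the direction also seen across genes at large, though not in strict order. It lay at -0.45 to -0.34 in the genes of 57.7% GC and above, and at -0.26 to 0.06 in those of 52.6 to 56.7%. In order of GC content it was 0.06 for FOS (52.6% GC), -0.26 for FOSL2 (53.3%), 0.00 for EGR1 (55.4%), -0.11 for JUN (56.7%), -0.39 for FOSB (57.7%), -0.45 for FOSL1 (60.0%), -0.38 for JUNB (64.9%) and -0.34 for JUND on the log2 scale. After each library's trends with GC content and exon length were removed, limma without any term called 5 members lower and 1 higher, with 5.08% of all genes called lower and 5.18% called higher. The log2 fold changes were then -0.81 ± 0.15 for FOS (adjusted p = 0.00701), -1.17 ± 0.15 for FOSB (0.0012), -0.73 ± 0.14 for JUN (0.00701), -0.61 ± 0.12 for JUNB (0.00867), -0.59 ± 0.16 for EGR1 (0.034) and 0.80 ± 0.13 for FOSL1 (0.00413). JUND was not called after this removal (-0.27 ± 0.13, adjusted p = 0.23).

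**Figure D4:**
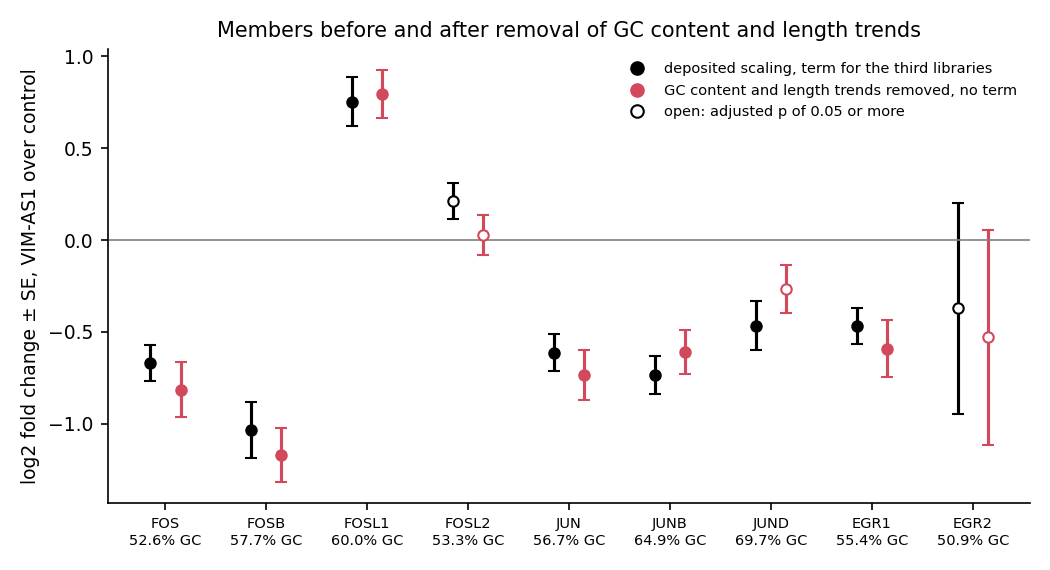
Log2 fold changes ± SE of VIM-AS1 over control libraries for each gene before and after removal of trends with GC content and exon length, with the GC content of the longest transcript under each name, black for the deposited scaling with the term and red for the trends removed without it, and open circles where a gene was not called. FOS is at -0.67 before and -0.81 after removal, and JUND is at -0.47 before and -0.27 after.

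The genes whose pattern over the 6 libraries was most like that of FOS, by Pearson r of log2(value + 1) among 9750 genes with a mean of at least 100, were MYT1L (r = 0.994), LETMD1 (0.988) and AKR1C3 (0.988). AKR1C3, which encodes a steroid-converting enzyme, had 848, 898 and 1062 normalized reads in VIM-AS1 libraries, against 1838, 1756 and 1842 in controls. Most like JUN were RHPN1 (0.996), RAB26 (0.996) and ENSG00000262877 (0.995), and most like EGR1 were DNHD1 (0.995), TMEM69 (0.995) and LINC03061 (0.992). Among the members, r was 0.97 between FOS and EGR1 and -0.82 between FOS and FOSL1. These values hold the difference between the groups and the spread within them, over libraries shared by every gene, and are given as a description.

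The other genes of the pathway were read from lists chosen by known function, and of 95 genes tested in them 28 rose and 10 fell. Over all tested genes the median log2 fold change was -0.02, 11.5% rose and 7.94% fell. With the GC content and length trends removed and no term, 7 of the 95 were called higher and 7 lower. Of all genes, 5.18% were then called higher and 5.08% lower. Among 6 genes for serum response factor and its cofactors, 2 rose, 0 fell and the median log2 fold change was 0.16. SRF, which binds the CArG boxes marked in the EGR1 promoter, had 2039, 2319 and 1520 normalized reads in VIM-AS1 libraries, against 1439, 1567 and 948 in controls (log2 fold change 0.58 ± 0.10, adjusted p = 0.000517). The groups overlapped, since VIM-AS1 replicate 3 lay under control replicate 2. ELK1, a ternary complex partner of SRF, rose by 0.40 ± 0.11 on the log2 scale (adjusted p = 0.0108). Among 16 MAP kinases upstream, 6 rose and 0 fell, with a median of 0.12. RPS6KA4, a nuclear kinase that acts on CREB and histone H3, had 3789, 4381 and 2473 normalized reads in VIM-AS1 libraries, against 2049, 2170 and 1106 in controls, without overlap (1.02 ± 0.10, adjusted p = 2.71e-06). MAP2K1, which encodes a kinase of the MAP kinase cascade, rose by 0.38 ± 0.11 (adjusted p = 0.0172).

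Of 9 measured further partners of AP-1, 3 rose, 1 fell and the median was -0.02. MAFF, a small MAF protein, had 379, 353 and 287 normalized reads in VIM-AS1 libraries, against 272, 232 and 164 in controls, without overlap (0.63 ± 0.13, adjusted p = 0.00264). BATF3, a leucine zipper partner of JUN proteins, rose by 0.54 ± 0.16 (0.0235) and MAFK, another small MAF protein, by 0.38 ± 0.12 (0.0269). JDP2, which represses AP-1 targets, fell by 0.46 on the log2 scale (SE 0.11, adjusted p = 0.00697). Of 3 genes for EGR4 and the EGR corepressors, NAB1 fell by 0.48 (SE 0.15, adjusted p = 0.0294), while NAB2 had a log2 fold change of 0.02. None of 5 genes for the turnover of JUN and FOS proteins passed, with a median of 0.17 in the same limma fit. Of these, 1 had an unadjusted p under 0.05, edgeR, DESeq2 and limma-voom with the term also called 0, and the replicate block called 1, GSK3B, a kinase that marks JUN for degradation.

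Other immediate early genes were mixed: of 30, 11 rose, 6 fell and 13 were not called, with a median log2 fold change of 0.26. DUSP5, a nuclear phosphatase of MAP kinases, had 582, 606 and 528 normalized reads in VIM-AS1 libraries, against 275, 375 and 303 in controls, and the groups did not overlap (0.86 ± 0.13, adjusted p = 0.000126). CCN2, a secreted matrix protein, and NR4A3, an orphan nuclear receptor, rose by 0.72 and 0.68 on the log2 scale. ARC, best known at synapses, fell by 1.10 (SE 0.29, adjusted p = 0.0114), HES1, a transcriptional repressor downstream of Notch, by 0.52 (SE 0.16, 0.0256) and ZFP36 by 0.48 (SE 0.14, 0.0166). ZFP36 encodes a protein that speeds the decay of RNAs with AU-rich elements, and it belongs also to the list of 8 proteins that bind such elements, of which 3 rose and 1 fell (median 0.18). ELAVL1, which stabilises such RNAs, rose by 0.49 ± 0.11 (adjusted p = 0.00243), KHSRP, which promotes their decay, by 0.44 ± 0.11 (0.00758) and ZFP36L2, a relative of ZFP36, by 0.37 ± 0.11 (0.0265).

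Among genes linked to AP-1 as targets, 1 of 11 tested rose and 1 fell, with a median of 0.07. CCND1, which encodes cyclin D1, had 1226, 1344 and 1367 normalized reads in VIM-AS1 libraries, against 747, 821 and 760 in controls (0.76 ± 0.10, adjusted p = 5.77e-05). PLAU, which encodes urokinase, had 37.9, 45.1 and 34.8 in VIM-AS1 libraries, against 83.5, 111 and 67.9 in controls (-1.12 ± 0.24, adjusted p = 0.0023). Neither gene overlapped between the groups. Among 8 tested genes linked to EGR1 as targets, 2 rose, 1 fell and the median was 0.07. THBS1, a matrix protein that limits blood vessel growth, had 711, 646 and 883 normalized reads in VIM-AS1 libraries, against 275, 323 and 494 in controls (1.07 ± 0.12, adjusted p = 8.55e-06), and the groups did not overlap. ICAM1, an adhesion molecule, rose by 0.58 ± 0.14 (0.00584), and PDGFB, a growth factor subunit, fell by 0.47 (SE 0.11, adjusted p = 0.00586). Among the list genes called in the fit with the term, 24 were picked by size of change. Of these, 0 were called without the term and all 24 had the same sign in every alternative fit with the term. Those fits reuse the libraries and the term by which the 24 were picked, so the count of signs is not separate evidence. Without VIM-AS1 replicate 3 or without control replicate 3, 2 of the 24, RPS6KA4 and THBS1, were called, and without any other single library 15 to 23 were. Library size scaling called 19 of the 24, without BATF3, MAFK, NAB1, MAP2K1 and ZFP36L2. With the term, removal of the GC content and length trends called 21, without MAFK, MAP2K1 and ZFP36L2, and DESeq2 called 23, without NAB1. With those trends removed and no term, 12 of the 24 were called, and ELK1, NR4A3, ARC, ELAVL1, KHSRP and ICAM1 were among those not called.

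**Figure D5:**
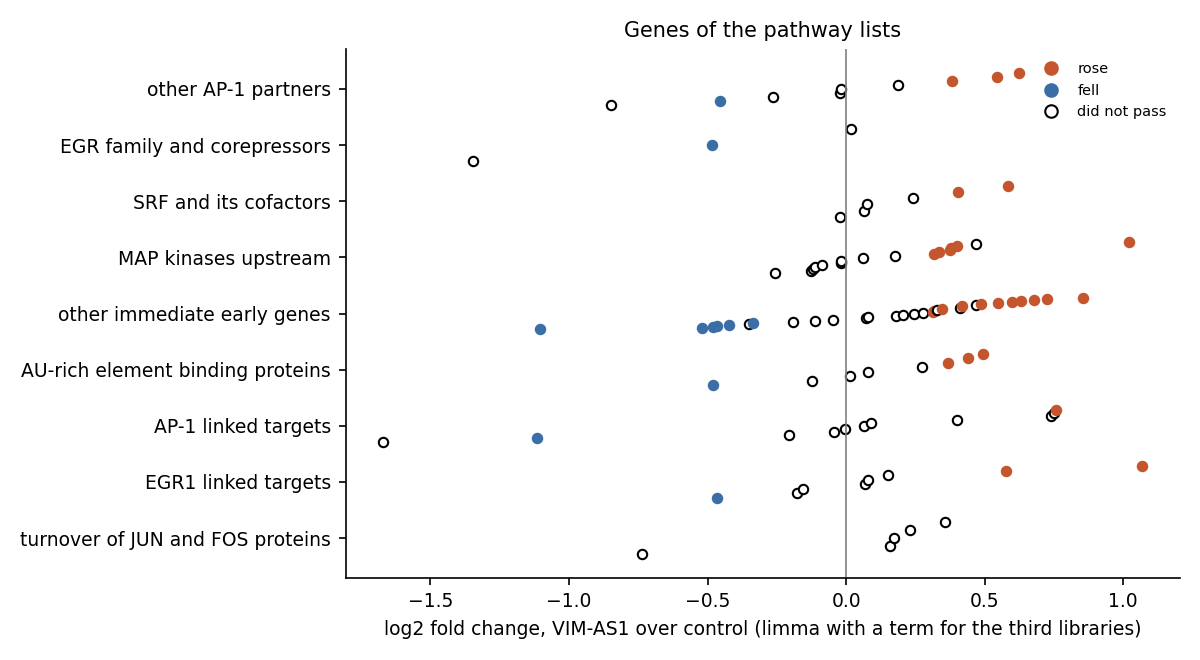
Log2 fold changes of VIM-AS1 over control libraries for the genes of each pathway list, from limma with a term for the third libraries, 1 point per gene and 1 row per list, orange for genes that rose, blue for genes that fell and open circles for those not called. The serum response factor list has 2 genes that rose and 0 that fell, and the list of other immediate early genes spreads to both sides of 0, with 11 that rose and 6 that fell.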

How the data were processed

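The tools fastp, HISAT2 and featureCounts and the build hg38 are named, without versions, per the submitters' processing notes. The sources used here do not give the strand setting. The deposited values are a signal per gene, namely counts divided by 1 factor per library: 100% of 25969 values per library were whole reads within 0.01 read, and the factors (0.819 to 1.27) equalled median-of-ratios factors. A gene at 0 could hold up to 3 reads (2.37 to 3.67 normalized), for counting error only. Same-group libraries differed beyond sampling noise.

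limma 3.58.1 (R 4.3.3), with an intensity trend, was fitted to log2(value + 1) for genes with a mean of at least 1, without and with a term for the third libraries. P-values were two-sided and Benjamini-Hochberg adjusted over all genes. The fold changes understate low genes. Symbols, positions and exons came from GENCODE 29, and all identifiers matched. Alternatives were TMM and library size scaling, filters, a pseudocount of 0.1, edgeR 4.0.16, DESeq2 1.42.0 and limma-voom on recovered reads, removal of GC and length splines, the replicate block and each library left out. Of these fits, only limma without and with the term was run on simulated reads. Those reads held a shift shared by the third libraries, as the term assumes, and no trend with GC content. Same-numbered libraries deviated together from their group means (r = 0.32, 0.72 and 0.84 over 13175 genes). The shift shared by the third libraries also makes the other libraries deviate together, so these r values cannot show a pairing. The replicate block therefore takes pairing by number as an assumption, which the labels do not give. For replicate 1 the r was weak: VIM-AS1 replicate 1 had r = 0.42 with control replicate 2, and VIM-AS1 replicate 2 had r = 0.33 with control replicate 1. Members, lists and the term were chosen with earlier results of these data known. Of each list, up to 3 genes that rose and 3 that fell were named by size of change, and for FOS, JUN and EGR1 the 3 genes of highest r, but 1 such list gene is not reported here.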

Additional observations from a re-analysis of the deposited data

How the results depend on the processing

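The 7 calls among the FOS, JUN and EGR genes in the fit with the term held under TMM scaling, library size scaling, both filters, a pseudocount of 0.1, edgeR, DESeq2 and limma-voom, and all but JUND held with the GC content and length trends removed. TMM and library size scaling moved the median of all genes by -0.00198 and -0.0602 on the log2 scale. With single libraries left out, the members called lower numbered 1 to 6, those called higher 0 to 1, and all genes called 236 to 4338 (4065 with every library). The lower counts came without VIM-AS1 replicate 3 (280 genes) and without control replicate 3 (236), and 2666 and 2450 genes were called without VIM-AS1 replicates 1 and 2. Without the term, 5 genes were called, against 28 with library size scaling, 17 with no filter, 353 with DESeq2, 2147 with the GC content and length trends removed and 5571 with the replicate block, and 1 to 6 with single libraries left out. Members without the term were 0 lower and 0 higher, against 5 lower and 1 higher with the trends removed and 6 lower and 2 higher with the replicate block. Compared with the fit with the term, the block changed the call of FOSL2 and of no other member. The log2 fold change of EGR2 ranged from -0.84 to 0.23 with the term and from -0.83 to 0.0213 without it over single libraries left out. The causes of these shifts were not tested. Read depth limits what can be said of EGR2, with 3 to 18 reads per library.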
